A study of Homo sapiens with 6 samples.

Results

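The genes described here are 36 components of NF-κB, Toll-like receptor and cytokine signalling, taken as a list by gene symbol from the 18056 genes of the deposited table, all typed there as mRNA. The list holds 4 ligands, 8 receptors, 9 adaptors and ubiquitin ligases, the 3 proteins of the IκB kinase complex, 5 Rel subunits, 6 inhibitors and the adhesion molecule ICAM1. All 36 symbols were found. RNA came from dorsal forebrain organoids, free-floating cultured tissue that models early cortex, grown from the wild-type induced pluripotent stem cell line DYR0100. A group of 3 libraries was from organoids exposed to 5 µM Aβ42, the aggregation-prone amyloid-β peptide, and the other 3 were from organoids given vehicle. Exposure lasted 6 days, and the labels put all 6 libraries in 1 batch. As 1 line was used, the replicates carry 1 genetic background, and the model has no blood supply.

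NF-κB is a family of dimeric transcription factors held in the cytoplasm by IκB inhibitors. Most Toll-like receptors, TLR3 excepted, and interleukin-1 receptors signal through MYD88 and IRAK kinases. Tumour necrosis factor receptors signal through TRAF proteins, RIPK1 and the BIRC ligases. Both routes meet at the IκB kinase, which marks IκB for destruction and frees the dimers. Among the genes then switched on are inhibitors of the pathway itself, such as NFKBIA and TNFAIP3, and cytokines and adhesion molecules such as IL6, CXCL8, CCL2 and ICAM1. In brain, microglia are the main carriers of Toll-like receptors, while neurons, progenitors and astrocytes also contain the core NF-κB machinery.

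The libraries held 16465390 to 16742958 estimated counts each, with a median of 495.5 to 515.9 per tested gene. Dorsal forebrain markers were present in every library: over all 6, EMX2 was at 31.97 to 40.86 TPM (a level scaled for gene length and library size), PAX6 at 104.2 to 118.0 TPM and NEUROD6, a gene of cortical excitatory neurons, at 646.9 to 720.2 TPM. Aβ42 replicate 2 stood apart from its group. The mean chi-square per gene between it and vehicle replicate 1 was 3.16, against 9.40 and 8.49 between it and the other Aβ42 libraries. For 57.9% of all tested genes and for 22 of 31 tested members it was the Aβ42 library nearest to the vehicle mean, so results are given with and without it where it matters. Because nearness to vehicle was part of that choice, leaving it out widens many differences by construction. Without it 23.1% of all genes tested passed the adjusted threshold, against 0.0% with every library. Calls made without it are therefore no separate support for a difference. Vehicle and Aβ42 replicate 2 deviated together (correlation 0.388), while for replicates 1 and 3 the data did not single out same-numbered pairs. The labels do not say what a replicate number shares. Blocked values, from a model with a term for that number, are therefore an alternative, given where they change a call. The choroid plexus markers (6 genes, TTR among them) moved with that number: they summed to 7570 TPM in vehicle replicate 2 and 6662 TPM in Aβ42 replicate 2, against 2838 to 3966 TPM in the other libraries, and their part in the results was not tested.

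Microglia were next to undetectable. Of 20 microglia markers, C1QA, C1QB, C1QC, TREM2, TYROBP, FCGR3A and CD33 had 0 counts in every library, which allows at most 3 counts, or 0.179 to 0.182 CPM (a count scaled to library size), in each. CD68, a lysosomal protein that other cells also make, was at 4.28 to 5.10 TPM, and SALL1, which neural progenitors also make, at 34.2 to 42.8 TPM. No other listed microglia marker exceeded 0.72 TPM in any library. The summed level of the list was 47.5 to 48.1 TPM in vehicle and 40.2 to 49.6 TPM with Aβ42, nearly all of it from SALL1 and CD68.

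The intracellular core of the pathway was present all the same, while IL6 and the listed Toll-like receptors were at 0 or near it. In vehicle, 18 members had a mean of at least 10 TPM, 9 lay from 1 to 10 TPM and 9 were under 1 TPM. The highest was the ubiquitin ligase BIRC2 at 75.6 ± 2.83 TPM (mean ± SD, n = 3), followed by the Rel subunit RELA (44.1 ± 3.50 TPM), the kinase CHUK (38.7 ± 1.33 TPM) and the Rel subunit REL (37.7 ± 1.71 TPM). CHUK and REL differed by less than their spread. The 9 genes under 1 TPM were the cytokines IL6 and LIF, the receptors TLR2, TLR3, TLR4 and IL1R1, the ligase BIRC3, the atypical IκB protein NFKBIZ and the adhesion molecule ICAM1. The median member had 10.2 TPM, against 15.02 TPM for all genes in the table. In bulk RNA, fewer cells of a type and less RNA per cell cannot be told apart.

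**Figure D1:**
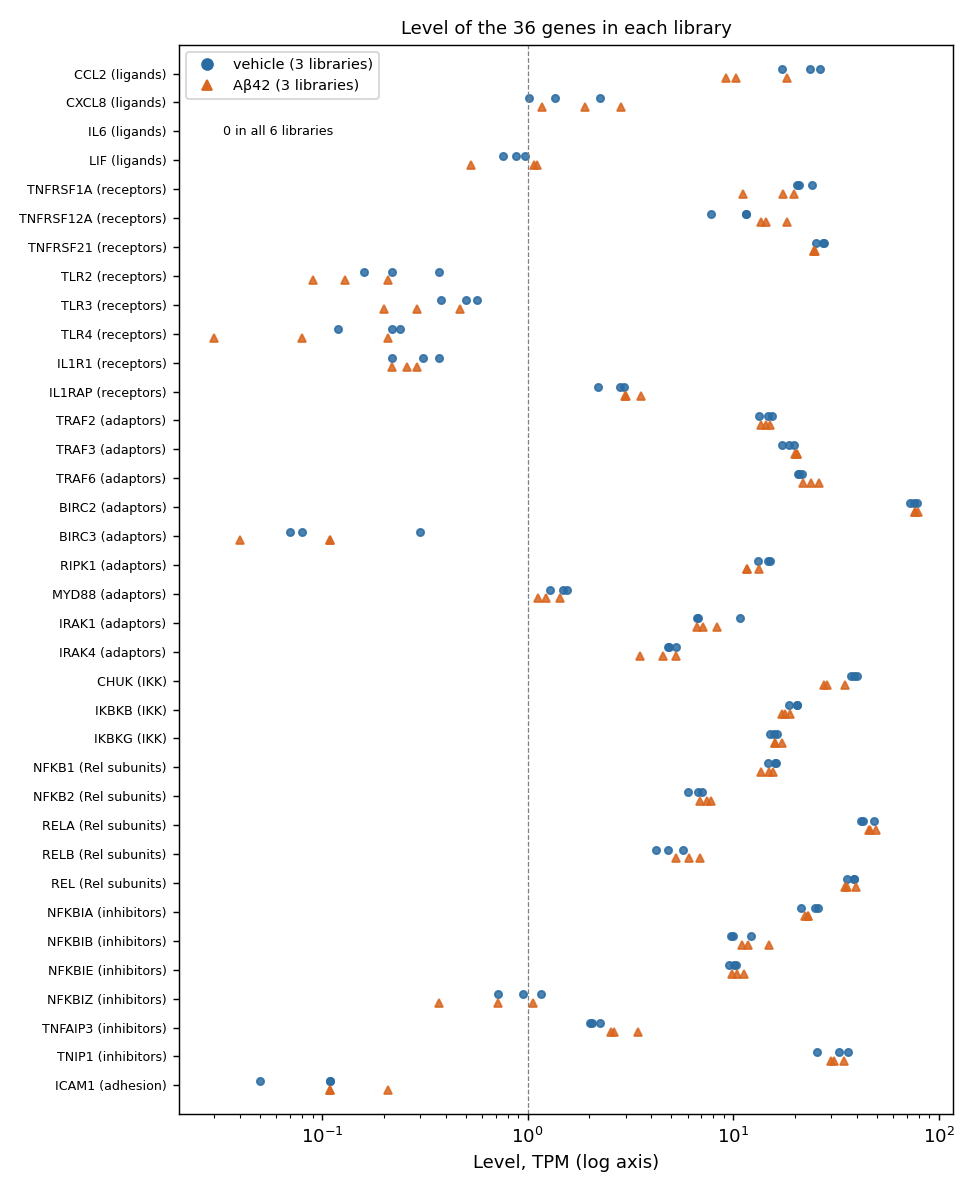
Level of each of the 36 genes in TPM on a log axis, 1 point per library, circles for vehicle and triangles for Aβ42, with a dashed line at 1 TPM. The core kinases, adaptors and Rel subunits lie mostly above 10 TPM, the 3 Toll-like receptors below 1 TPM, and IL6 is listed at 0 in all 6 libraries.

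Between Aβ42 and vehicle, 0 of the 31 members with enough counts to test passed the threshold of 0.05 on the adjusted p-value (edgeR, quasi-likelihood; 0.0% of all tested genes passed), and the smallest adjusted p-value, that of CHUK, was 0.0807. Before adjustment, 6 members had a p-value under 0.05, 4 higher (TNFRSF12A, TNFAIP3, TRAF6 and TRAF3) and 2 lower (CCL2 and CHUK). That is 19.4% of the tested members, against 23.9% of all tested genes (12.4% higher and 11.5% lower). The values of the groups did not overlap for 6 members higher and 2 lower, or 25.8%, against 27.0% of all tested genes (13.6% higher, 13.4% lower). The sign was positive for 17 and negative for 14 members (50.7% and 49.3% of all tested genes), and the median log2 fold change was 0.05, against 0.003 over all tested genes. The counts at an unadjusted p-value under 0.05 moved with single libraries. Those higher were 2 without vehicle replicate 2 or Aβ42 replicate 3 and 7 without Aβ42 replicate 2. Those lower were 1 without vehicle replicate 3, Aβ42 replicate 1 or Aβ42 replicate 3, and 6 without Aβ42 replicate 2.

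With the replicate number as a block, 5 members passed the adjusted threshold, 2 higher (TNFRSF12A and TRAF6) and 3 lower (CCL2, TNFRSF1A and CHUK). This is 16.1% of tested members, beside 14.2% of all tested genes (7.12% higher and 7.05% lower). Before adjustment the block gave 7 higher and 5 lower members, where 29.3% of all tested genes were called (14.9% higher and 14.4% lower). Without Aβ42 replicate 2 and without the block, 8 of 31 tested members passed, 3 higher and 5 lower, or 25.8%, beside 23.1% of all genes tested (11.5% higher and 11.6% lower). They were the same 5 genes with TNFAIP3 (higher), TLR4 and RIPK1 (both lower) added. DESeq2's Wald test called 1 member, CHUK, lower, where 6.3% of all genes were called (3.01% higher and 3.29% lower).

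**Figure D2:**
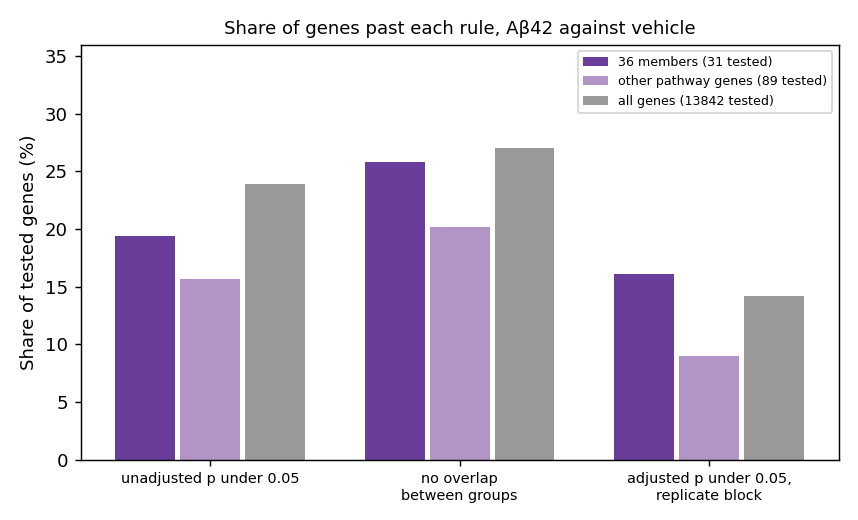
Share of tested genes, in percent, at an unadjusted p-value under 0.05, with no overlap between the groups, and past an adjusted p-value of 0.05 with the replicate block, for the members, the other genes of the pathway and all genes. The members' bars stand at 19.4%, 25.8% and 16.1% beside 23.9%, 27.0% and 14.2% for all genes.

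Of the 3 ligands tested, only CCL2 had an unadjusted p-value under 0.05 in edgeR, as 23.9% of all tested genes had. CCL2 (Entrez gene ID 6347, chr17:34255285-34257203 in RefSeq's annotation of GRCh38.p14), a chemokine that attracts monocytes, was at 2.94, 3.95 and 4.39 CPM in vehicle replicates 1 to 3 and at 1.65, 3.21 and 1.86 CPM in Aβ42 replicates 1 to 3. Aβ42 replicates 1 and 3 lay below every vehicle library, and Aβ42 replicate 2 lay above vehicle replicate 1, so the groups overlapped. The group means were 3.76 ± 0.74 and 2.24 ± 0.85 CPM (SD, n = 3 each). The difference was -0.75 ± 0.27 on the log2 scale (SE; unadjusted p-value 0.0190, adjusted p-value 0.139 in edgeR). With the replicate block the log2 fold change was -0.76 and the adjusted p-value 0.0266, and without Aβ42 replicate 2 they were -1.10 and 0.00782, within a range of 0.00782 to 0.409 over 15 alternatives.

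Markers of other cells that can make this chemokine were examined beside it. The 10 astrocyte markers, all tested, had a median log2 fold change of -0.27, with 7 negative and 3 positive. Their summed level was 745.7 to 810.2 TPM in vehicle and 644.1 to 760.1 TPM with Aβ42, most of it from SLC1A3. Vehicle means within the list ran from 0.89 TPM for AQP4 to 520.5 TPM for SLC1A3. The sum is thus no measure of how many astrocytes were present, and which cells made SLC1A3 was not tested. Before adjustment 1 of these 10 was higher (ALDH1L1) and 2 were lower (S100B and SLC1A3), where 23.9% of all tested genes were called. In edgeR without the block 0 passed the adjusted threshold. With the block 1 higher (ALDOC) and 4 lower (S100B, SLC1A3, GJA1 and SLCO1C1) of the 10 passed, where 14.2% of all tested genes did. Of 10 mesenchymal markers 7 were tested, 4 positive and 3 negative with a median of 0.02, and the sum was 29.8 to 42.9 TPM in vehicle and 26.2 to 30.2 TPM with Aβ42. DCN, the largest part of that sum in vehicle, lay far from this median. Its log2 fold change was -1.17 ± 0.52 (adjusted p-value 0.263 in edgeR), and its groups overlapped. With the block DCN passed as lower (-1.15, adjusted p-value 2.28e-06) and TAGLN as higher (0.39, adjusted p-value 0.0361), and no other mesenchymal marker passed. Of 8 endothelial markers 2 were tested, 1 of each sign, and the sum, mostly CLDN5, was 3.64 to 7.46 and 2.23 to 3.97 TPM. The ranges of the groups overlapped in all 3 sums. The endothelial marker ERG was at 0 in every library and CDH5 and PECAM1 averaged under 0.05 TPM in both groups. The part of these cells in the CCL2 values was not tested.

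The remaining ligands were scarce. CXCL8, the neutrophil-attracting chemokine interleukin-8, was at 0.78, 0.55 and 1.22 CPM in vehicle and 1.10, 0.65 and 1.62 CPM with Aβ42, overlapping widely (log2 fold change 0.40 ± 0.40, adjusted p-value 0.565). It rested on 9 to 27 counts per library. LIF, a cytokine of the interleukin-6 family that maintains neural stem cells, was at 1.44, 1.09 and 1.28 CPM in vehicle and 0.79, 1.60 and 1.62 CPM with Aβ42 (0.07 ± 0.32, 0.904). Its lowest and highest values were both in the Aβ42 group. IL6, the inflammatory cytokine, had 0 counts in all 6 libraries, with the same upper limit of 3 counts per library as above, so a difference was not detectable at this depth.

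Among receptors, the values of TNFRSF12A and TNFRSF1A, both of the tumour necrosis factor receptor family, did not overlap between groups, with opposite signs. That is 33.3% of the receptors tested, against 27.0% of all tested genes. Neither passed the adjusted threshold without the block. TNFRSF12A (51330, chr16:3020368-3022383), the receptor of the cytokine TWEAK, was at 3.12, 2.07 and 3.05 CPM in vehicle and 4.02, 3.74 and 5.16 CPM with Aβ42. Every Aβ42 library lay above every vehicle library. The means were 2.75 ± 0.59 and 4.31 ± 0.75 CPM, and the log2 fold change of 0.65 ± 0.22, or 1.57-fold, was the largest increase among the members (unadjusted p-value 0.0123, adjusted p-value 0.120). With the block it was 0.65 (adjusted p-value 0.0273), and without Aβ42 replicate 2 it was 0.74 (0.0310). Over the alternatives the adjusted p-value ran from 0.0273 to 0.398.

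TNFRSF1A (7132, chr12:6328771-6342076), the main receptor of tumour necrosis factor, was at 16.1, 18.2 and 15.6 CPM in vehicle and 8.84, 15.3 and 14.0 CPM with Aβ42. The groups did not overlap, but Aβ42 replicate 2 lay close under vehicle replicate 3, and Aβ42 replicate 1 was far below all others. The log2 fold change was -0.39 ± 0.18 (unadjusted p-value 0.0575, adjusted p-value 0.224). With the block it was -0.40 (adjusted p-value 0.0438), without Aβ42 replicate 2 it was -0.54 (0.0497), and the adjusted p-value ran up to 0.493 among the alternatives. Without Aβ42 replicate 1 the log2 fold change was -0.18. The ligand of this receptor, TNF, had 0 counts in 4 libraries and 1 count in each of Aβ42 replicates 1 and 2.

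TNFRSF21, also known as death receptor 6, for which an N-terminal fragment of the amyloid precursor protein has been described as a ligand, was the steadiest receptor. It was at 34.7, 37.0 and 37.0 CPM in vehicle and 34.7, 33.9 and 35.2 CPM with Aβ42, with a log2 fold change of -0.07 ± 0.06 (adjusted p-value 0.531).

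The 3 Toll-like receptors among the members were at the edge of detection. TLR3, an endosomal sensor of double-stranded RNA, was at 0.90, 1.16 and 1.34 CPM in vehicle and 0.49, 1.13 and 0.72 CPM with Aβ42 (log2 difference -0.53 ± 0.35, adjusted p-value 0.378). TLR4, the lipopolysaccharide receptor that microglia also use to sense amyloid fibrils, had 19, 20 and 10 counts in vehicle and 7, 18 and 3 counts with Aβ42. Aβ42 replicate 2 lay with vehicle replicates 1 and 2, and the other Aβ42 libraries lay below all vehicle libraries. Its log2 fold change was -0.81 ± 0.52 (adjusted p-value 0.365). It was -1.69 without Aβ42 replicate 2, with an adjusted p-value of 0.0333, in a range from 0.0333 to 0.727 over the 14 alternatives that tested it. TLR2, which recognises bacterial lipopeptides, did not pass the count filter, with 7.01, 15.2 and 8.04 estimated counts in vehicle and 7.03, 12.04 and 5.03 with Aβ42. Its counts were not whole, so part of its reads could have been divided with another feature. In the wider list examined below, TLR1, a partner of TLR2, was better detected, at 106 to 138 counts per library and a log2 fold change of -0.03 ± 0.14 (adjusted p-value 0.907). TLR9, a sensor of unmethylated DNA, was at 1.44, 1.76 and 1.83 CPM in vehicle and 2.80, 2.08 and 2.34 CPM with Aβ42, without overlap (0.52 ± 0.23, adjusted p-value 0.199). Both were named after their values were seen.

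The interleukin-1 receptor pair was unequal. IL1RAP, the accessory chain, was at 3.60, 4.99 and 5.00 CPM in vehicle and 4.75, 5.23 and 5.58 CPM with Aβ42, with the groups overlapping (log2 fold change 0.20 ± 0.17, adjusted p-value 0.505). IL1R1, the chain that binds interleukin-1, did not pass the filter. It had 12, 7 and 9 counts in vehicle and 7, 8 and 10 counts with Aβ42. On the length-scaled level, IL1RAP stood at 2.66 ± 0.40 TPM and IL1R1 at 0.30 ± 0.08 TPM in vehicle.

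Apart from MYD88 and BIRC3, the adaptors and ubiquitin ligases had at least 101 counts in every library. Those with an unadjusted p-value under 0.05 in edgeR were TRAF6 and TRAF3, or 25.0% of those tested against 23.9% of all tested genes. TRAF6 (7189, chr11:36483769-36510272), the ubiquitin ligase through which interleukin-1 and Toll-like receptors reach the IκB kinase, was at 64.7, 62.5 and 66.6 CPM in vehicle and 81.5, 68.4 and 76.7 CPM with Aβ42. The groups did not overlap, and Aβ42 replicate 2 was the nearest to vehicle. The means were 64.6 ± 2.05 and 75.5 ± 6.67 CPM, a log2 fold change of 0.23 ± 0.07 (unadjusted p-value 0.00687, adjusted p-value 0.0993). With the block the log2 fold change was 0.22 with an adjusted p-value of 0.0203, and without Aβ42 replicate 2 it was 0.29 with 0.00333. Over the alternatives the adjusted p-value ran from 0.00333 to 0.328. Part of the TRAF6 counts were not whole numbers.

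TRAF3 (7187, chr14:102777449-102911500), a ligase that restrains the non-canonical NF-κB route, was at 58.3, 54.5 and 53.3 CPM in vehicle and 62.5, 60.1 and 62.1 CPM with Aβ42. The groups did not overlap, by a narrow margin. Its log2 fold change was 0.15 ± 0.06 (unadjusted p-value 0.0210, adjusted p-value 0.145), and it passed under none of the 15 alternatives, where the adjusted p-value was 0.0573 to 0.385.

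TRAF2, which carries BIRC2 to tumour necrosis factor receptors, was at 10.9 to 12.6 CPM in vehicle and 11.3 to 13.2 CPM with Aβ42 (log2 difference 0.06 ± 0.10). BIRC2, a ubiquitin ligase that keeps RIPK1 in its survival-signalling form, was at 107.6, 102.2 and 107.6 CPM in vehicle and 111.6, 109.4 and 107.9 CPM with Aβ42. Its groups did not overlap, but the difference of 0.05 ± 0.05 on the log2 scale was no larger than its error (adjusted p-value 0.522). Its close relative BIRC3, which is switched on by NF-κB, did not pass the filter, with 3, 3 and 9 counts in vehicle and 3, 5 and 2 with Aβ42. BIRC2 thus made up nearly all of the pair in these organoids, at 75.6 TPM against 0.15 TPM for BIRC3 in vehicle.

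RIPK1, the kinase that sets tumour necrosis factor signalling toward survival or death, was at 19.2, 20.3 and 20.5 CPM in vehicle and 15.5, 19.8 and 17.2 CPM with Aβ42. Aβ42 replicate 2 fell inside the vehicle range and the other Aβ42 libraries lay below it. The log2 fold change was -0.19 ± 0.10 (adjusted p-value 0.263). It was -0.29 without Aβ42 replicate 2, with an adjusted p-value of 0.0361, and over the alternatives the adjusted p-value ran from 0.0361 to 0.596.

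The receptor-proximal adaptor MYD88 had only 17 to 22 counts per library (1.20 to 1.34 CPM in vehicle, 1.01 to 1.32 CPM with Aβ42; log2 fold change -0.11 ± 0.26). IRAK4, the kinase MYD88 recruits first, was at 6.51 to 7.63 CPM and 6.06 to 7.92 CPM (-0.03 ± 0.14). IRAK1, which IRAK4 phosphorylates, was at 14.5, 8.88 and 9.09 CPM in vehicle and 9.202, 11.5 and 10.1 CPM with Aβ42. Vehicle replicate 1 was well above the other 5 libraries, and the coefficient of variation in vehicle was 29.6%, against a counting error of 7.56%. The log2 fold change of IRAK1 was -0.08 ± 0.19 with that library and 0.19 without it, and neither fit called it (adjusted p-values 0.823 and 0.440, the latter the lowest of a range up to 0.987).

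Of the 3 proteins of the IκB kinase complex, 1 had an unadjusted p-value under 0.05 in edgeR, or 33.3% against 23.9% of all tested genes. CHUK (1147, chr10:100186319-100229596), the catalytic subunit also called IKKα, had the smallest p-value of all members. It was at 50.7, 51.1 and 53.2 CPM in vehicle and 39.4, 47.5 and 39.2 CPM with Aβ42. Every Aβ42 library was below every vehicle library, with Aβ42 replicate 2 between the other Aβ42 libraries and vehicle. The means were 51.7 ± 1.34 and 42.02 ± 4.71 CPM, a log2 fold change of -0.30 ± 0.08 (unadjusted p-value 0.00296, adjusted p-value 0.0807). The adjusted p-value was 0.0112 with the block, 0.0362 in DESeq2 and 0.00112 without Aβ42 replicate 2 (log2 fold change -0.39), and it ran from 0.00112 to 0.322 over the alternatives. The second catalytic subunit, IKBKB (IKKβ), was at 27.1 to 29.2 CPM in vehicle and 25.7 to 27.6 CPM with Aβ42, a log2 fold change of -0.10 ± 0.07 (adjusted p-value 0.409). The regulatory subunit IKBKG (NEMO) was at 10.3, 10.5 and 10.7 CPM in vehicle and 11.8, 10.99 and 11.2 CPM with Aβ42. Its groups did not overlap, yet its log2 fold change of 0.10 ± 0.10 was within its error (adjusted p-value 0.528). The difference between CHUK and IKBKG was not tested.

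**Figure D3:**
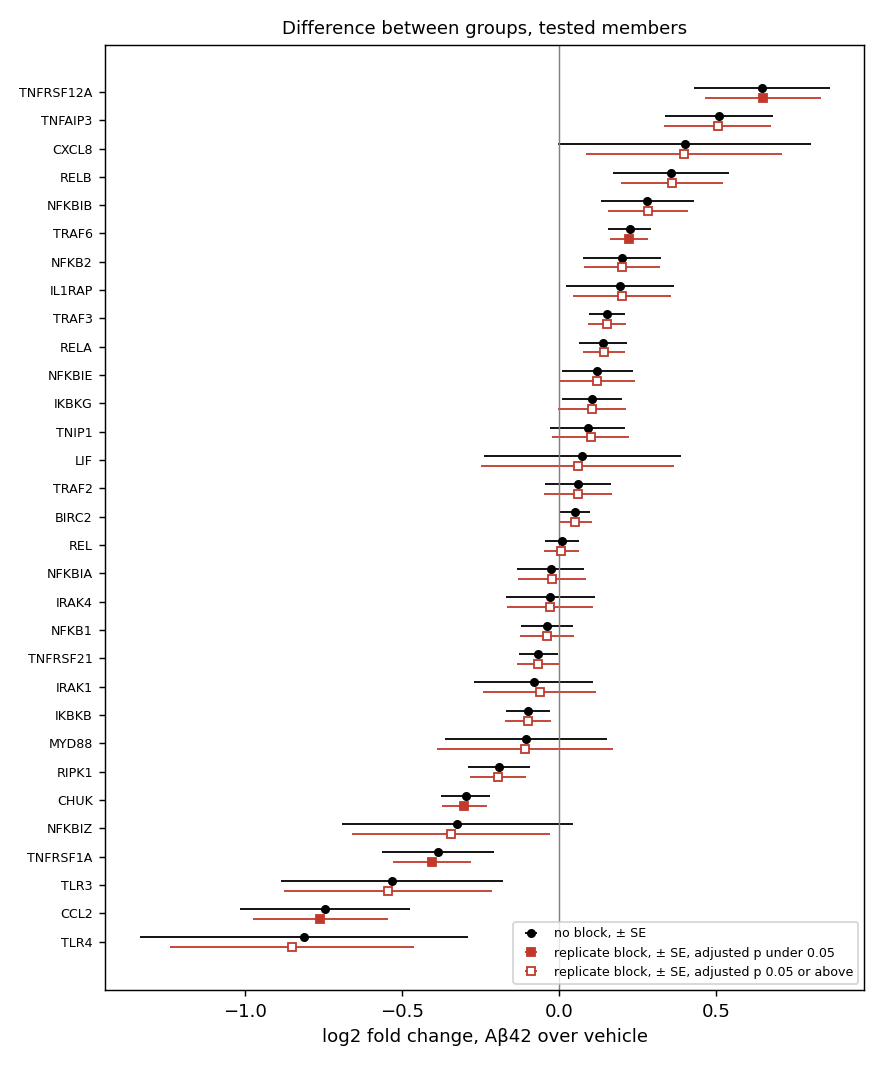
Log2 fold change of Aβ42 over vehicle for the 31 tested members, ordered by size, with SE bars; black circles are the fit without a block, red squares the fit with the replicate block, filled where the adjusted p-value is under 0.05. TNFRSF12A is the highest and TLR4 the lowest, and the 5 filled squares are TNFRSF12A, TRAF6, CHUK, TNFRSF1A and CCL2.

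None of the 5 Rel subunits, the transcription factors themselves, passed the adjusted threshold in any fit. Before adjustment, edgeR without the block called 0 of them at 0.05, beside 23.9% of all tested genes. With the block 2 were called before adjustment, RELA and RELB, beside 29.3%. DESeq2 called 0 after adjustment, where 6.3% of all genes were called. With 5 genes, these shares cannot show whether the subunits differed less than other genes. The log2 fold change was positive for 4 subunits and negative for 1. Its median was 0.14, against 0.003 over all tested genes. REL (c-Rel), best known from lymphocytes, was at 161.7, 170.9 and 173.0 CPM in vehicle and 181.1, 163.5 and 163.8 CPM with Aβ42 (log2 difference 0.01 ± 0.05, adjusted p-value 0.939). Its counts were not whole in every library, so its level is uncertain where reads were divided. NFKB1, the precursor of p50, was at 20.7 to 23.1 CPM in vehicle and 20.1 to 22.4 CPM with Aβ42 (-0.04 ± 0.08, 0.806). RELA (p65), its usual partner, was at 43.9, 37.9 and 37.3 CPM in vehicle and 45.8, 41.9 and 43.6 CPM with Aβ42, overlapping through vehicle replicate 1 (0.14 ± 0.08, 0.278).

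The subunits of the non-canonical route had the larger positive values within this group. RELB was at 3.91, 3.22 and 4.51 CPM in vehicle and 5.61, 4.22 and 5.10 CPM with Aβ42, with Aβ42 replicate 2 inside the vehicle range (log2 fold change 0.36 ± 0.18, adjusted p-value 0.261). NFKB2, the precursor of p52 that pairs with RELB, was at 7.99, 6.81 and 7.68 CPM in vehicle and 8.59, 7.90 and 9.36 CPM with Aβ42 (0.20 ± 0.12, 0.346). Neither passed the adjusted threshold with the block.

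Among the 6 inhibitors, only TNFAIP3 had an unadjusted p-value under 0.05 in edgeR, or 16.7% against 23.9% of all tested genes. NFKBIA, the standard readout of NF-κB feedback, did not have one. TNFAIP3 (7128, chr6:137866349-137883312) encodes A20, an enzyme that edits ubiquitin chains to end NF-κB signalling. It was at 3.48, 3.59 and 3.90 CPM in vehicle and 6.22, 4.69 and 4.74 CPM with Aβ42, and every Aβ42 library lay above every vehicle library. The means were 3.66 ± 0.22 and 5.22 ± 0.87 CPM, a log2 fold change of 0.51 ± 0.17, or 1.42-fold (unadjusted p-value 0.0129, adjusted p-value 0.121). With the block the adjusted p-value was 0.0567. Without Aβ42 replicate 2 it was 0.0366, with a log2 fold change of 0.58, and over the alternatives it ran from 0.0366 to 0.360. These values rest on 58 to 102 counts per library.

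NFKBIA, which encodes IκBα, was at 10.7 to 13.3 CPM in vehicle and 11.6 to 12.3 CPM with Aβ42. All 3 Aβ42 values lay inside the vehicle range, and the log2 fold change was -0.03 ± 0.11 (adjusted p-value 0.899). NFKBIB (IκBβ) was at 7.57, 5.90 and 5.98 CPM in vehicle and 8.84, 7.01 and 7.80 CPM with Aβ42, overlapping through vehicle replicate 1 (0.28 ± 0.15, 0.271). NFKBIE (IκBε) was at 7.93 to 8.53 CPM and 8.37 to 9.63 CPM (0.12 ± 0.11, 0.527). The nuclear IκB protein NFKBIZ rested on 9 to 27 counts (-0.32 ± 0.37, 0.612), with its lowest value in Aβ42 replicate 1. TNIP1, a partner of A20, was at 39.4, 27.3 and 35.4 CPM in vehicle and 34.3, 38.9 and 35.6 CPM with Aβ42 (0.09 ± 0.12, 0.665), with vehicle replicate 2 below the other 5 libraries. ICAM1, the leukocyte adhesion molecule and a textbook NF-κB target, did not pass the filter, with 1, 2 and 2 counts in vehicle and 2, 2 and 4 with Aβ42.

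**Figure D4:**
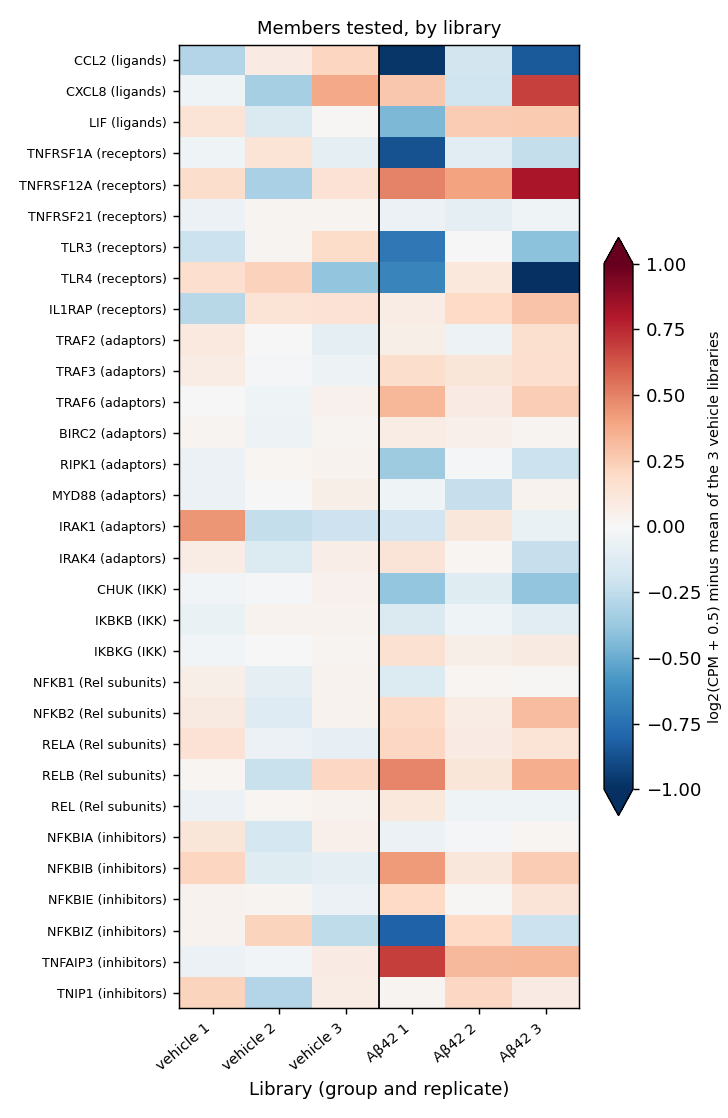
Each cell is log2(CPM + 0.5) of a tested member in 1 library minus the mean of the 3 vehicle libraries; red is higher and blue lower, and the black line separates the groups. Aβ42 replicate 2 is paler than Aβ42 replicates 1 and 3 in many rows, and was the Aβ42 library nearest to the vehicle mean for 22 of 31 members.

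To show which of these genes carry NF-κB letters just before their start, the 250 bases before the start used in the RefSeq promoter table (GRCh38.p14) were searched on both strands for the 10-letter NF-κB consensus. A promoter was in the table for 30 members, and 8 of them (26.7%) held the consensus, beside 5.21% of all 35116 promoters of that length. The 9 stretches of 30 bases below hold every match, written 5′ to 3′ on the gene's strand with the matching letters in capitals. Matches that begin with GGA lie on the opposite strand, and in REL matches on the 2 strands overlap. For TNFAIP3 the promoter table uses a start that lies inside the gene span given above, so its stretch falls within that span.
TNFAIP3, chr6:137867188-137867217, plus strand: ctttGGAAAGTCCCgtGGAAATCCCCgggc
NFKBIA, chr14:35404811-35404840, minus strand: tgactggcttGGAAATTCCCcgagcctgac
NFKBIZ, chr3:101827757-101827786, plus strand: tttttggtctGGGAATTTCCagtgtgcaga
NFKB1, chr4:102501300-102501329, plus strand: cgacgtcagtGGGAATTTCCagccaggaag
REL, chr2:60881518-60881547, plus strand: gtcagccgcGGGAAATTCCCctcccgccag
TRAF3, chr14:102777406-102777435, plus strand: cgggcgcgccGGGGATTTCCagcgcgcgag
BIRC3, first match, chr11:102317275-102317304, plus strand: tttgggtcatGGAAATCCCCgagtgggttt
BIRC3, second match, chr11:102317339-102317368, plus strand: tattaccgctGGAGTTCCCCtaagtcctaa
IL6, chr7:22727117-22727146, plus strand: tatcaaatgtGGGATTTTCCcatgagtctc

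The same letters stood before genes with unlike values. TNFAIP3, with 2 matches 2 bases apart, and TRAF3 had no overlap between groups and were higher with Aβ42, NFKBIA, NFKB1, REL and NFKBIZ overlapped between groups, and IL6 and BIRC3 were at 0 to 9 counts per library. A match describes letters only, and the other members with a promoter in the table had none within this window. The whole window before 2 of these genes is shown, as the feedback gene that no fit called and the cytokine listed at 0.
NFKBIA, chr14:35404750-35404999, minus strand: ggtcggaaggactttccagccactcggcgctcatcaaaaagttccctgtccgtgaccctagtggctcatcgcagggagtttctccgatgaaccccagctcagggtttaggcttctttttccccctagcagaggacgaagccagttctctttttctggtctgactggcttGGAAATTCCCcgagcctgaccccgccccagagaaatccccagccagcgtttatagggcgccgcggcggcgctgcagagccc
IL6, chr7:22726950-22727199, plus strand: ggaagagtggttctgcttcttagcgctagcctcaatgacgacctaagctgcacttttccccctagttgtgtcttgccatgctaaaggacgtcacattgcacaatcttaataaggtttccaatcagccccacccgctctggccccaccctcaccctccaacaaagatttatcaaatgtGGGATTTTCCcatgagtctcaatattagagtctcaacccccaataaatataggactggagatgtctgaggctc

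Beyond the members, 143 further ligands, receptors, adaptors, inhibitors and targets of these pathways were examined, of which 139 were in the table and 89 had enough counts to test. Before adjustment, 9 higher and 5 lower had a p-value under 0.05 (15.7%, against the 23.9% of all genes), and 0 passed the adjusted threshold in edgeR. With the block 4 higher and 4 lower passed, 8.99% against 14.2%. Without Aβ42 replicate 2 and without the block, 8 higher and 6 lower passed, of which 7 and 5 were among these 89, where 23.1% of all genes passed. With DESeq2, 2 higher and 3 lower passed, where 6.3% of all genes did.

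The 3 smallest p-values among the lower genes of this wider list were those of ligands. Of 8 ligands tested, 7 had a negative log2 fold change (49.3% of all tested genes had), the smallest being IL34 at -0.01 ± 0.16, and 3 were lower at an unadjusted p-value under 0.05 (11.5% of all tested genes were). None passed the adjusted threshold in edgeR without the block. CXCL12, the chemokine that guides migrating interneurons and Cajal-Retzius cells, was at 10.3, 14.3 and 11.5 CPM in vehicle and 5.30, 6.65 and 7.44 CPM with Aβ42, a log2 fold change of -0.89 ± 0.16 (adjusted p-value 0.0684). CX3CL1, the neuronal chemokine whose receptor CX3CR1 sits on microglia, was at 22.2, 26.1 and 22.9 CPM in vehicle and 15.6, 20.3 and 16.4 CPM with Aβ42 (-0.44 ± 0.11, 0.0737). HMGB1, a chromatin protein that acts as a danger signal when released, was at 448.9, 495.0 and 460.1 CPM in vehicle and 381.1, 433.8 and 379.3 CPM with Aβ42 (-0.23 ± 0.06, 0.0829). The groups of each of these 3 genes were apart, as in 20.2% of the wider list tested and 27.0% of all tested genes. The 3 genes were picked by p-value from the same libraries, so this is no separate support for a difference. With the block their adjusted p-values were 0.000397, 0.00223 and 0.00422. Over the alternatives these values ran up to 0.296, 0.302 and 0.322. IL33, a nuclear alarmin and the 1 tested ligand with a positive value, was at 43.3, 36.4 and 40.8 CPM in vehicle and 44.8, 44.6 and 46.1 CPM with Aβ42 (0.17 ± 0.07, adjusted p-value 0.182). It was named after its value was seen.

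Among the higher genes of the wider list, the 3 smallest p-values were those of ATF3, SQSTM1 and EDA2R. ATF3, a stress-induced transcription factor, was at 30.7, 26.5 and 30.1 CPM in vehicle and 35.8, 36.7 and 40.1 CPM with Aβ42, a log2 difference of 0.37 ± 0.08 (adjusted p-value 0.0691; 0.00353 with the block). SQSTM1, the autophagy receptor p62 that also binds TRAF6, was at 181.5, 173.8 and 167.2 CPM in vehicle and 199.5 to 227.7 CPM with Aβ42 (0.26 ± 0.06, 0.0734; 0.00859 with the block). EDA2R, a tumour necrosis factor family receptor of ectodysplasin-A2 and a p53 target, was at 26.4, 25.1 and 27.9 CPM in vehicle and 32.0, 31.2 and 30.7 CPM with Aβ42 (0.24 ± 0.07, 0.0906; 0.0357 with the block). In none of these genes did the groups overlap, where 27.0% of all tested genes had no overlap (13.6% higher). These 3 genes too were picked by p-value from the same libraries, so this is no separate support for a difference. Over the alternatives the adjusted p-values of ATF3, SQSTM1 and EDA2R ran from 0.00353, 0.00473 and 0.0331 up to 0.296, 0.296 and 0.321.

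Of the 28 further ligands in the table, 20 did not pass the count filter. CCL3, CCL4, CXCL10, IL18 and IL1RN had 0 counts in every library, as IL6 did, IL1B had 1 count over all 6 libraries and TNF had 2. LTA, a cytokine close to TNF, had 7, 6 and 6 counts in vehicle and 12, 9 and 12 with Aβ42, without overlap and untested. These ligands were named after their values were seen.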

How the data were processed

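RNA sequencing of polyadenylated RNA was analysed in 6 libraries, 3 per group. The deposited table gives, for each gene and library, estimated counts and TPM made by the authors; GRCh38, STAR 2.7.11b and featureCounts 2.0.6 are named in the submitters' processing notes, and the annotation is not given in the sources used here. Per the file headers the counts are read counts, but only 86.9% to 87.5% were whole, so they were treated as estimated counts and rounded. Counting may have divided reads between features, and the kit was stranded per the labels' protocols, though the counter's strand setting is not given in the sources used here. The deposited TPM values are scaled by the authors for length and summed to 999999 to 1000001 per library.

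In R 4.3.3, genes were kept by filterByExpr (13842), scaled by TMM and tested with edgeR 4.0.16 (robust quasi-likelihood, two-sided, Benjamini-Hochberg over all genes tested, threshold 0.05). SE was taken as the absolute log2 fold change over root F. CPM values are TMM-normalised. The alternatives were other scalings and filters, DESeq2 1.42.0, limma 3.58.1 on voom and log2(TPM + pseudocount) values, a replicate block, and each library left out. The test was tried on simulated data before use. Replicates are stated to be independent biological replicates. Pairs of libraries differed by 3.16 to 21.2 in mean chi-square per gene, so none is a duplicate. Deviations of same-numbered libraries from their group means correlated at 0.181, 0.388 and 0.129 over 12186 genes (genes are not independent replicates). Vehicle replicate 3 and Aβ42 replicate 1 correlated at 0.177, and vehicle replicate 1 and Aβ42 replicate 3 at 0.154. Only the pair of replicate 2 was thus set apart. The main fit has no block. The block treats same-numbered libraries as pairs, by the replicate numbers in the labels, which do not say what a number shares. No molecular identifiers are mentioned, so limits cover counting error only.

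The members and lists were chosen with earlier results of these data known. All members are reported; values in every library are given for those with an unadjusted p-value under 0.05, without overlap or under the count filter, and for others where useful. Of the further pathway genes, the rule named the 3 with the smallest p-value per direction; others named in the text were chosen after their values were seen.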

Additional observations from a re-analysis of the deposited data

How the results depend on the processing

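Of 31 tested members, 23 kept their sign under all 15 alternatives (14 for CXCL8, MYD88, NFKBIZ, TLR3 and TLR4, and also for LIF, whose sign changed) and 8 changed it at least once, none of them called in any fit. Members past the adjusted threshold, 0 in edgeR without a block, were 2 higher and 3 lower with the replicate block and 1 lower by DESeq2, and ran from 0 to 3 higher and 0 to 5 lower when 1 library was left out. At an unadjusted p-value under 0.05 the 4 higher and 2 lower members became 7 and 5 with the replicate block, 2 and 4 on log2(TPM + 1) and 1 and 4 on log2(TPM + 0.1), and ran from 2 to 7 and 1 to 6 with 1 library left out. The median log2 fold change of the members, 0.0513, was 0.0663 under upper-quartile scaling, 0.0128 with limma-voom, -0.0085 on log2(TPM + 1), -0.009 on log2(TPM + 0.1), and -0.0223 to 0.0638 with 1 library left out, so its sign is not fixed. For the other pathway genes, 2 higher and 2 lower passed with no filter on low counts, 2 and 3 by DESeq2, 4 and 4 with the replicate block, and 0 to 8 and 0 to 6 with 1 library left out. Their 9 higher and 5 lower genes at an unadjusted p-value under 0.05 became 5 and 8 on both TPM scales, 8 lower without a filter, and 5 to 19 and 6 to 11 with 1 library left out. The cause of these shifts was not tested.

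On log2(TPM + 1), TRAF2 was at -0.0085 and REL at -0.0337, and on log2(TPM + 0.1), TRAF2 was at -0.009, REL at -0.0346 and LIF at -0.0053. With 1 library left out, the log2 fold change ran from -0.0834 to 0.3398 for LIF, -0.2054 to 0.1907 for IRAK1 (positive without vehicle replicate 1), -0.113 to 0.0737 for IRAK4, -0.0858 to 0.0133 for NFKB1, -0.0408 to 0.033 for REL, -0.1127 to 0.0388 for NFKBIA and -0.0444 to 0.2096 for TNIP1. Depth limits the 7 tested members with a mean under 50 counts and the 5 untested ones: the SE of the log2 fold change ran from 0.05 for BIRC2 to 0.52 for TLR4.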
